A study of Rattus norvegicus with 6 samples.

Results

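The 8 transcripts described here were measured by array probes to which no gene symbol could be matched: A_44_P347283, A_44_P417083, A_44_P127278, A_44_P123818, A_43_P17329, A_44_P669698, A_64_P160323 and A_43_P17083. They were chosen from earlier results on these arrays because their signal differed between treated and control livers. They are 8 of 61657 non-control probes, and 8 of the 19102 probes without a symbol that were bright enough to test. Since the difference between the groups chose them, it is given as a description, with no test.

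The livers came from 6 male Sprague-Dawley (Crl:CD(SD)) rats, bought at 5 weeks of age, with 1 array per rat. In the NTA group, 3 rats received nitrilotriacetic acid trisodium monohydrate at 1000 mg/kg/day, and in the vehicle group 3 rats received the carrier alone. The labels name purified water as the carrier in one place and corn oil in another, and give the time of treatment as 28 days or as 9 weeks. Whole liver RNA was used, so fewer cells of a type and less RNA per cell cannot be told apart.

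NTA is a chelator that binds metal ions and is best known in rats for its effects on kidney and urinary tract. An array probe is a short oligonucleotide designed against one transcript, and its gene name comes from the sequence record behind it. Many records of the time were single expressed sequence tags, clusters of such tags, or gene predictions that were later renamed or withdrawn. Such a probe still reports the amount of RNA that binds it, but the gene behind it must be looked up again.

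The target identifiers in the files place the 8 probes in several kinds of record. A_64_P160323 was designed against NM_001108718, a RefSeq messenger RNA record that the current gene table used here does not list. A_44_P417083 was designed against the Ensembl transcript ENSRNOT00000014403. A_44_P127278 was designed against AA955668, a single expressed sequence tag in GenBank. A_43_P17329, A_44_P669698 and A_43_P17083 carry the TC numbers TC625294, TC605652 and TC573588, which are consensus sequences assembled from tags. For A_44_P347283 and A_44_P123818 the target field only repeats the probe's own ID. Symbols were looked up by RefSeq accession, so only NM_001108718 could have matched, and it did not. No gene and no function is assigned to any of the 8.

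Of the 38168 tested probes, 3936 had only their own ID as target, 4054 an Ensembl transcript, 2843 a TC number and 4922 a GenBank record. None of these had a symbol, because symbols were looked up by RefSeq accession alone. A further 3301 tested probes without a symbol had a RefSeq accession. The share of probes whose NTA and vehicle arrays did not overlap was 15.7% for probes with only their own ID, 13.7% for Ensembl transcripts, 13.7% for TC numbers, 11.6% for GenBank records and 13.3% for all RefSeq probes. Differences between these shares were not tested.

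Values are given as the log2 of a probe's signal over the 75th percentile of its own array, for replicates 1, 2 and 3 of each group, with means ± SD over n = 3 rats. "Processed signal" is the background-subtracted intensity before that scaling. In 7 of the 8 probes the NTA arrays were higher and in 1, A_64_P160323, they were lower, and in all 8 the groups did not overlap. Over all tested probes the groups did not overlap in 13.4%, with the NTA arrays higher in 5.55% and lower in 7.83%. The choice of the 8 fixes this count, and nothing is read from it.

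**Figure D1:**
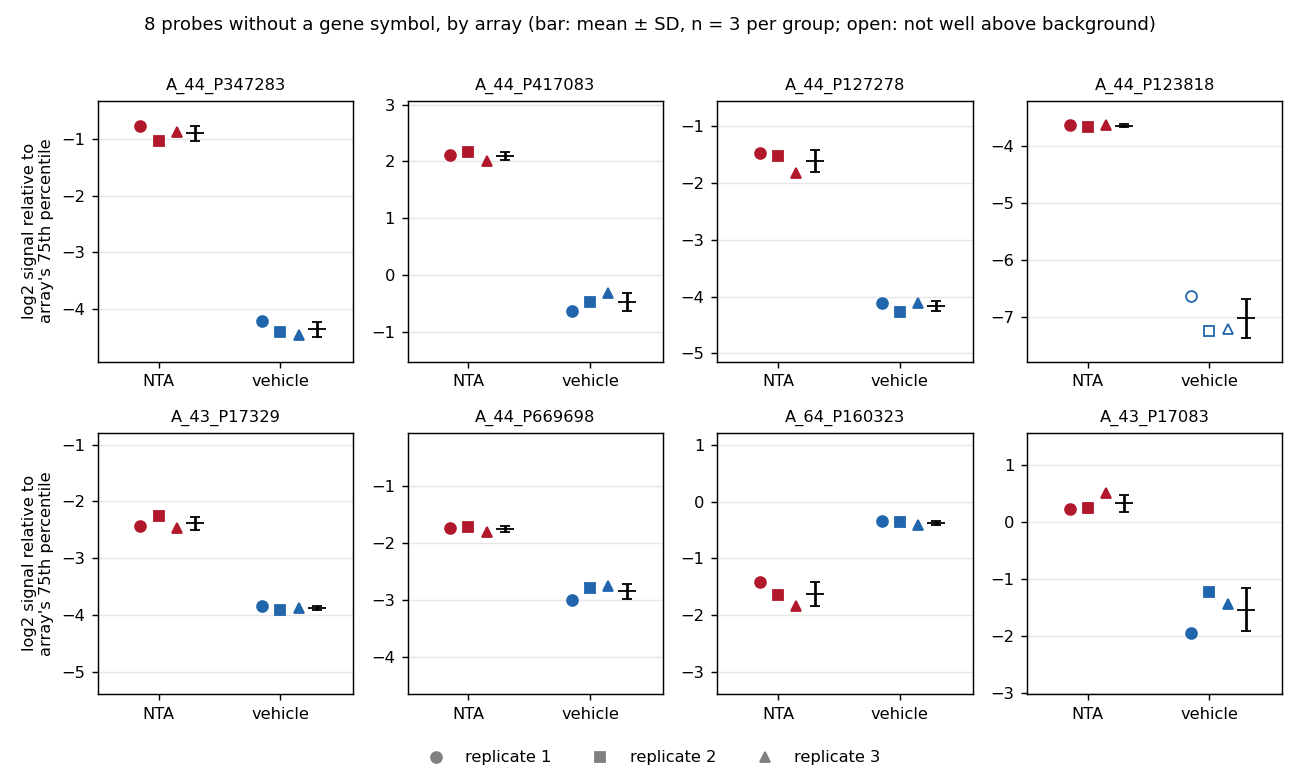
Log2 of signal over the array's 75th percentile (vertical axis) for the 8 probes on the 3 NTA arrays (left in each panel) and the 3 vehicle arrays (right), with mean ± SD. All panels span the same number of log2 units. NTA and vehicle arrays do not overlap in any of the 8 panels, and the open symbols of A_44_P123818 mark signals not well above background.

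A_44_P347283 is one of the probes known only by its own ID. Its log2 signal was −0.78, −1.05 and −0.88 on the NTA arrays, against −4.21, −4.41 and −4.45 on the vehicle arrays. Every NTA array lay at least 3.16 log2 units above every vehicle array, while the arrays of a group spanned 0.27 with NTA and 0.24 with vehicle. The means were −0.90 ± 0.13 with NTA and −4.35 ± 0.13 with vehicle, a log2 difference of 3.45 or 10.9-fold. In processed signal this was 305, 249.9 and 303 with NTA, against 28.1, 21.8 and 24.2 with vehicle. The probe was well above background on all 6 arrays. Its raw spot medians on the vehicle arrays were 59, 51.5 and 56, beside local backgrounds of 73, 67 and 43, so the vehicle spots lay close to, and on 2 of the 3 arrays below, the local background. The NTA spots, at 299, 258 and 301, stood clear of local backgrounds of 60, 58 and 67.

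A_44_P417083, the Ensembl transcript probe, gave bright spots in both groups. Its processed signals were 2263, 2307 and 2249 with NTA, against 335, 334 and 424 with vehicle. On the log2 scale the values were 2.11, 2.16 and 2.01 with NTA and −0.63, −0.47 and −0.31 with vehicle. The means were 2.09 ± 0.08 and −0.47 ± 0.16, a log2 difference of 2.57 or 5.92-fold. Even the dimmest vehicle spot, with a raw median of 399.5 beside a local background of 60, was well clear of background.

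A_44_P127278, the probe for the tag AA955668, had a log2 difference of almost the same size, 2.56 or 5.91-fold, on dimmer spots. Its log2 values were −1.48, −1.52 and −1.83 with NTA, against −4.12, −4.28 and −4.12 with vehicle (means −1.61 ± 0.19 and −4.17 ± 0.09). The processed signals were 188, 179.9 and 157 with NTA, against 29.8, 23.9 and 30.3 with vehicle. The gap between the lowest NTA and the highest vehicle array was 2.29, wider than the range within either group, 0.35 with NTA and 0.16 with vehicle. The raw spot medians on the vehicle arrays were 62.5, 53 and 61 beside local backgrounds of 69, 58 and 39, so 2 of the 3 vehicle spots lay below the local background here too.

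For A_44_P123818 the size of the difference is uncertain. It was well above background on all 3 NTA arrays and on none of the vehicle arrays. The processed signals were 42.5, 40.7 and 45.4 with NTA, against 5.23, 3.06 and 3.56 with vehicle. On the log2 scale the NTA arrays lay at −3.63, −3.66 and −3.62, within 0.04 of each other, and the vehicle arrays at −6.63, −7.24 and −7.21 (measured means −3.64 ± 0.02 and −7.03 ± 0.34). Set against the lowest signal that was well above background on each vehicle array, the NTA arrays were 3.02-fold higher in the processed signal. That lowest signal was taken over all probes of the array and is not the detection limit of this spot. The value of 3.02 is therefore no strict lower bound. It also holds for the processed signal only, since the normexp background correction described below gave 1.44-fold. The NTA spots were themselves dim, with raw medians of 69, 72 and 71.5 beside local backgrounds of 52, 52 and 57. Because the vehicle signals were not well above background, the measured log2 difference of 3.39 is not used as a fold.

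A_43_P17083, one of the TC probes, differed 3.65-fold and had an SD of 0.38 among vehicle rats, the largest of the 8. Its log2 values were 0.22, 0.25 and 0.51 with NTA, against −1.96, −1.22 and −1.44 with vehicle (means 0.33 ± 0.16 and −1.54 ± 0.38). Vehicle replicate 1 was the low one. Leaving it out gave a log2 difference of 1.66, against 1.87 with all arrays.

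A_43_P17329 and A_44_P669698, the other TC probes, had smaller differences and narrow groups. A_43_P17329 had log2 values of −2.43, −2.26 and −2.47 with NTA, against −3.84, −3.92 and −3.87 with vehicle. Its means were −2.39 ± 0.11 and −3.87 ± 0.04, a log2 difference of 1.49 or 2.80-fold. A_44_P669698 had −1.74, −1.71 and −1.80 with NTA, against −3.01, −2.79 and −2.75 with vehicle. Its means were −1.75 ± 0.05 and −2.85 ± 0.14, a log2 difference of 1.10 or 2.14-fold. For both probes the gap between the groups, 1.37 and 0.95, exceeded the range within each group.

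A_64_P160323, the RefSeq probe, was the one that was lower with NTA. Its log2 values were −1.42, −1.64 and −1.83 with NTA, against −0.33, −0.37 and −0.40 with vehicle. The vehicle rats were within 0.07 of each other, while the NTA rats spanned 0.42. The means were −1.63 ± 0.21 with NTA and −0.37 ± 0.04 with vehicle, a log2 difference of −1.26, so vehicle exceeded NTA 2.40-fold.

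NM_001108718 was also the one target identifier among the 8 with a further probe on the array, and that probe did not follow A_64_P160323. A_44_P265299 had log2 values of −1.28, −1.72 and −1.83 with NTA, against −1.75, −2.10 and −2.16 with vehicle. Its groups overlapped, and its means were −1.61 ± 0.29 with NTA and −2.01 ± 0.22 with vehicle, a log2 difference of 0.39 (SE 0.19) in the upward direction. Both probes were well above background on all 6 arrays. The log2 ratio of A_64_P160323 to A_44_P265299 within a rat was −0.13, 0.08 and 0.00 on the NTA arrays, against 1.42, 1.74 and 1.76 on the vehicle arrays. The 2 differences were thus 1.66 log2 units apart, in opposite directions.

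Such a gap between probes of one record was uncommon on these arrays. Among 4896 target identifiers with exactly 2 probes well above background on all 6 arrays, the median gap between the log2 differences of the 2 probes was 0.09, and 95% of the gaps were below 0.42. NM_001108718 was 1 of 5 identifiers (0.102%) with a gap of 1.66 or more. A_64_P160323 was chosen for a large difference, so a wide gap was more likely for it than for an identifier taken blindly. In 10 of the 4896 identifiers 1 probe was higher and the other lower with no overlap of the groups on either.

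**Figure D2:**
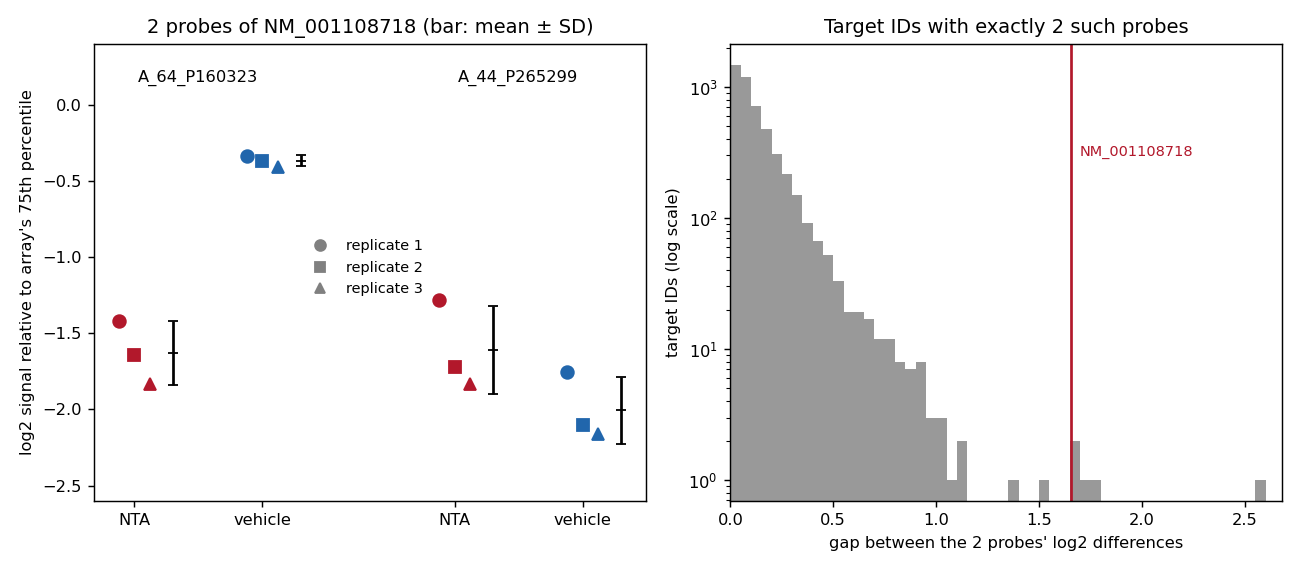
Left, log2 of signal over the array's 75th percentile for the 2 probes of NM_001108718 on NTA and vehicle arrays, with mean ± SD (n = 3 each): A_64_P160323 is lower with NTA, while the groups of A_44_P265299 overlap. Right, the gap between the log2 differences of the 2 probes for 4896 target identifiers (count on a log axis), with a line at the gap of 1.66 for NM_001108718.

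The 8 were not simply those with the widest differences. Among 36174 probes well above background on all 6 arrays, A_44_P347283 ranked 1st by log2 difference of the processed signal, and A_44_P417083 and A_44_P127278 ranked 12th and 13th. The 1st rank holds for the processed signal only: with normexp A_44_P347283 had 1.86, below 2.41 for A_44_P417083. A_43_P17083, A_43_P17329 and A_44_P669698 ranked 28th, 53rd and 124th, and A_64_P160323 was 41st from the bottom. A_44_P123818, with vehicle signals not well above background, has no rank. Among such probes without a symbol, 51 had a larger positive difference than A_44_P669698 and 23 a more negative one than A_64_P160323. The SDs of the 8 within a group ran from 0.02 to 0.38. Over all tested probes limma called 13 (0.0341%) at a Benjamini-Hochberg adjusted p under 0.05, all higher with NTA. Among those 13 were A_44_P347283, A_44_P417083, A_44_P127278, A_44_P123818 and A_43_P17329, and these calls were a basis of their choice.

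**Figure D3:**
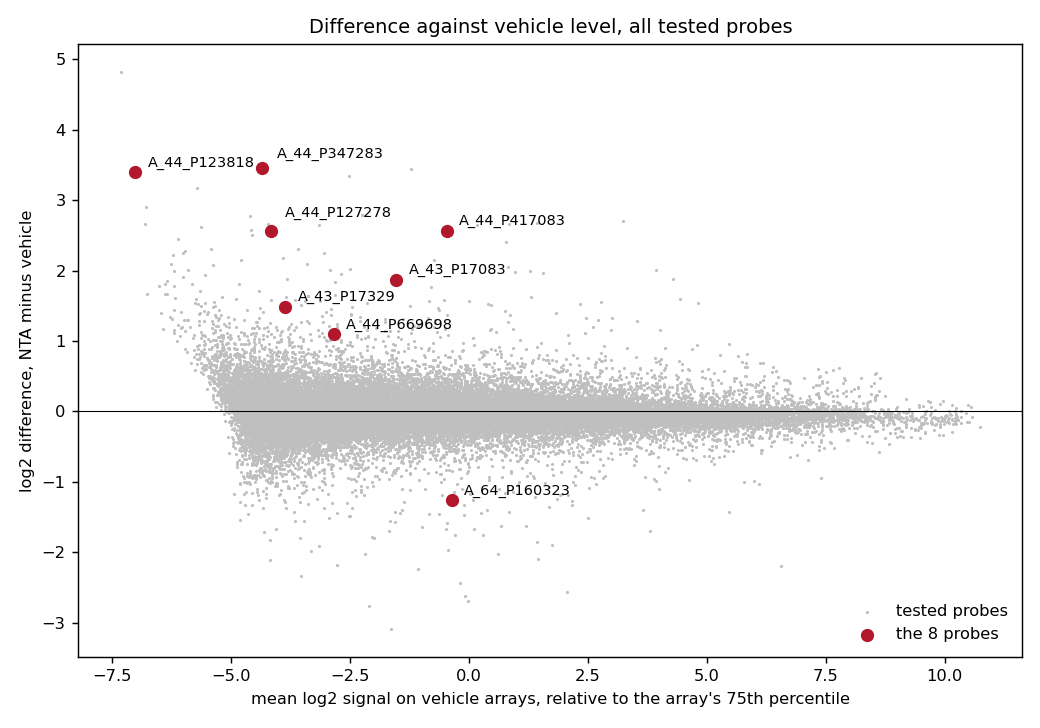
Log2 difference, NTA minus vehicle (vertical axis), against the mean of the same log2 signal on vehicle arrays (horizontal axis) for 38168 tested probes (grey) and the 8 probes (red). A_44_P123818 lies at the dim edge, where signals were not well above background with vehicle, and A_44_P417083 lies well inside the range of measured levels.

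At dim probes the size of the difference changed when the input signal, the background correction and the offset were changed together. The alternative was normexp background correction of spot medians by local background medians, with an offset of 50 added to every spot. Its steps were not run separately, so their shares in the change are not known. With this alternative the log2 difference of A_44_P347283 was 1.86 (3.63-fold) in place of 3.45. A_44_P127278 had 1.37 (2.58-fold) in place of 2.56, A_43_P17329 had 0.73 in place of 1.49, A_44_P669698 had 0.68 in place of 1.10, and A_44_P123818 had 0.52. The brighter probes moved less, to 2.41 for A_44_P417083, 1.61 for A_43_P17083 and −1.03 for A_64_P160323. The direction and the lack of overlap held for all 8 probes with normexp and with quantile normalization.

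**Figure D4:**
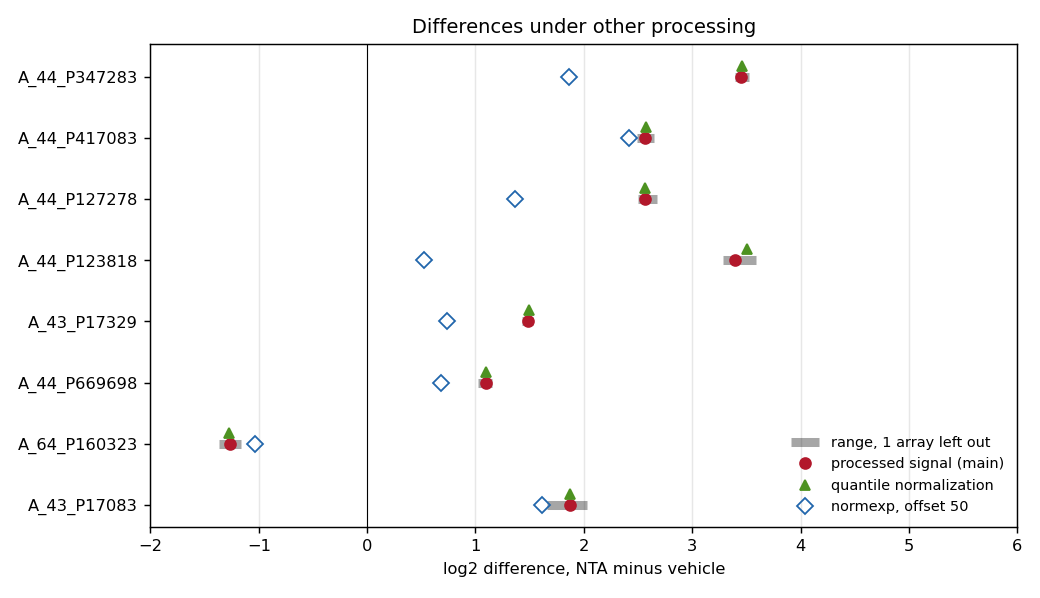
Log2 difference, NTA minus vehicle (horizontal axis), of the 8 probes from the processed signal (red), after quantile normalization (green) and after normexp correction with an offset of 50 (open blue), with the range over the 6 fits that left 1 array out (grey bar). Differences shrink with normexp for all 8 probes, to 0.52 for A_44_P123818, and all keep their side of 0.

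Spots around each probe on the array surface did not share its difference. Within 4 rows and 4 columns of the 8 spots lay between 45 and 55 other tested probes each. The median log2 difference of these neighbours was between −0.06 and 0.05, and 2 of the 394 had a difference as large in size as that of the probe they surrounded. None of the 8 probes was saturated or flagged as non-uniform on any array.

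The profiles of the 8 over the 6 arrays were compared with those of named genes by the root mean square difference between profiles, after subtracting each probe's own mean. This is a description over 6 arrays that includes the group difference itself. The closest named probes of A_44_P417083 were a pair of Gstp1 probes, at 0.09 log2 units each. A_44_P127278 was likewise closest to Gstp1, at 0.11 and 0.14 in the processed signal. Gstp1 encodes the pi-class glutathione S-transferase, a detoxifying enzyme that is a classic marker of preneoplastic foci in rat liver. Its probe A_64_P170600 had log2 values of 4.12, 4.23 and 3.98 with NTA, against 1.37, 1.45 and 1.47 with vehicle, a difference of 2.68. With normexp the log2 differences of the 3 Gstp1 probes were 2.63, 2.70 and 2.72, beside 2.41 for A_44_P417083 and 1.37 for A_44_P127278. The closeness of A_44_P127278 to Gstp1 in the processed signal was thus not kept with normexp and its offset. In the processed signal A_44_P417083 and A_44_P127278 differed from each other by 0.13.

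The closest named probes of A_44_P347283 were also of Gstp1 but lay farther away, at 0.40 and 0.42. No named probe came within 0.3 of it, whereas 6 did for A_44_P417083 and 6 for A_44_P127278. For A_44_P347283 the log2 difference was 3.45 in the processed signal and 1.86 with normexp, above the 2.68 to 2.77 of the 3 Gstp1 probes in the first and below their 2.63 to 2.72 in the second. Distances for A_44_P123818 rest on vehicle signals that were not well above background, so none is read for it.

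A_43_P17329 was closest to Cyp26a1, a cytochrome P450 that clears retinoic acid, at 0.08. Cyp26a1 had log2 values of −1.016, −0.997 and −0.944 with NTA, against −2.44, −2.52 and −2.44 with vehicle, a difference of 1.48 beside 1.49 for A_43_P17329. With normexp these differences were 0.91 for Cyp26a1 and 0.73 for A_43_P17329. The next named probe, of the secreted protein gene C1qtnf3, was at 0.19, and no vehicle array showed it well above background. Within 0.3 of A_43_P17329 lay 21 named probes, so Cyp26a1 was the closest of many. A_44_P669698 was closest to Rhd, a blood group protein of red cells, at 0.09, and to Hpse, the heparan sulphate-cleaving heparanase, at 0.12. Here 88 named probes came within 0.3, so closeness to any one of them is less specific.

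A_64_P160323 was closest to Spink1, a secreted trypsin inhibitor, at 0.16, and to Pkp2, a desmosome protein, at 0.22. Spink1 had −1.11, −1.65 and −1.62 with NTA, against −0.48, −0.32 and −0.14 with vehicle. Within 0.3 of A_64_P160323 lay 9 named probes. A_43_P17083 was closest to A_44_P1003917, a probe of the axonemal dynein heavy chain gene Dnah1, at 0.25, and this was the one named probe within 0.3. Dnah1 on that probe had −2.51, −2.87 and −2.75 with NTA, against −4.48, −4.29 and −4.51 with vehicle, a log2 difference of 1.71, or 0.67 with normexp. The next, at 0.31, was a further Dnah1 probe that no vehicle array showed well above background. The remaining tested Dnah1 probe, A_43_P16210, was well above background on all 6 arrays and had a log2 difference of −0.08 with overlapping groups, so the probes of Dnah1 disagreed.

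**Figure D5:**
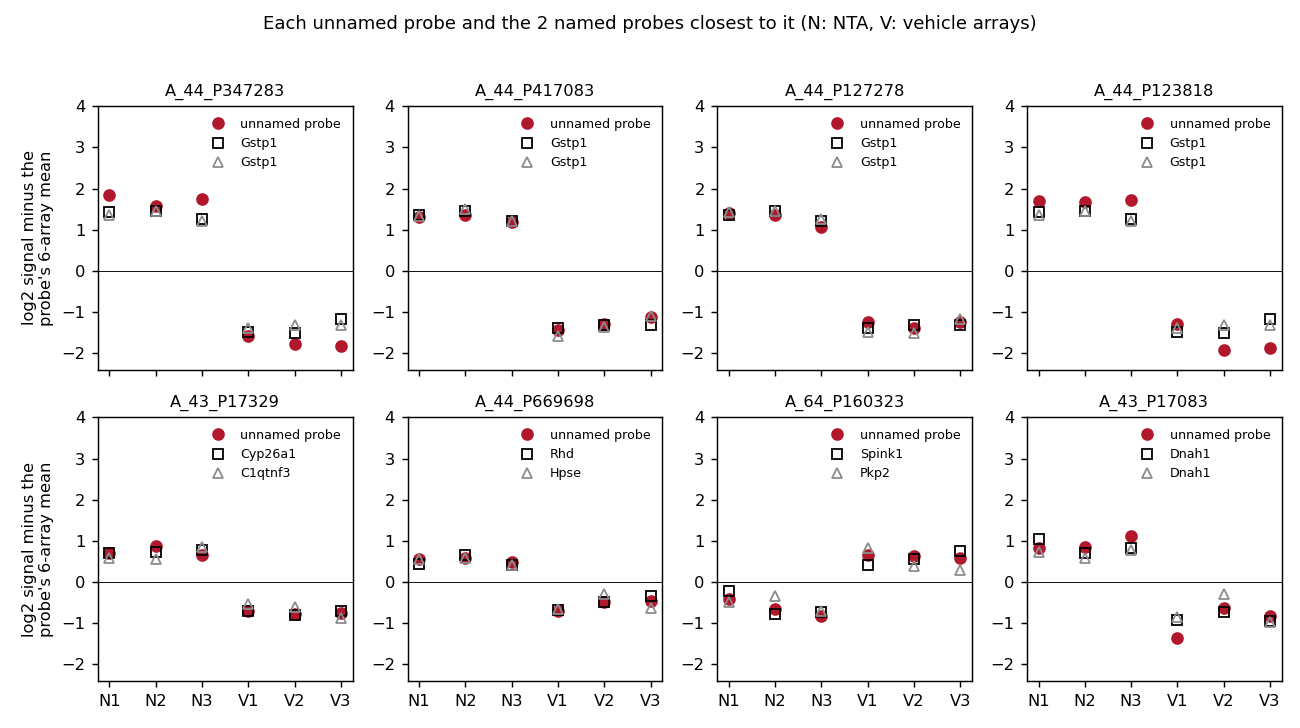
Log2 signal minus the probe's own mean over 6 arrays (vertical axis) on NTA (N1 to N3) and vehicle (V1 to V3) arrays for each of the 8 probes (red) and the 2 named probes closest to it (open symbols). Signals are from the processed intensity, in which Gstp1 overlies A_44_P417083 and A_44_P127278 and Cyp26a1 overlies A_43_P17329. The vehicle points of A_44_P123818 were not well above background.

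Gene lists around these named neighbours give the setting. The lists were chosen with earlier results of these data known, and Gstp1 for its small p in them. Their calls and p-values are therefore a description and no independent support. Among targets of the transcription factor NRF2, which drives glutathione and detoxification genes, 36 of 38 genes had a tested probe. In limma 3 of their 67 probes passed, all of Gstp1 and all higher (Benjamini-Hochberg adjusted p between 0.00184 and 0.00544), and 0 were lower. Gstp1 kept its call on 2 of these probes in all 6 fits with 1 array left out, and on the third lost it without NTA replicate 1 or NTA replicate 2. Markers of preneoplastic foci in rat liver had a tested probe for 16 of 16 genes, and the same 3 Gstp1 probes were those that passed of 28. The median log2 difference was 0.31 for NRF2 targets and 0.56 for focus markers, against −0.02 over all tested probes.

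Of retinoid handling genes 13 of 16 were tested, and 1 of 19 probes rose in limma, that of Cyp26a1 (Benjamini-Hochberg adjusted p = 0.00791), with a list median of −0.01. The call for Cyp26a1 was lost in each of the 6 fits that left 1 array out (limma adjusted p between 0.0586 and 0.094). Of tubulins 12 of 13 were tested, and 2 of 23 probes rose, both of the neuronal beta-tubulin gene Tubb3, by 2.50 and 2.01 on the log2 scale (limma, Benjamini-Hochberg adjusted p = 0.00637 and 0.029), with a list median of −0.03. With normexp these were 0.997 and 1.17, and that of Cyp26a1 was 0.91. The first Tubb3 probe lost its call without NTA replicate 1, NTA replicate 2 or vehicle replicate 2, and the second with any array left out. Among targets of the drug-sensing receptors CAR and PXR, 22 of 24 genes were tested and 0 of 37 probes passed in limma, with 4 at an unadjusted p under 0.05 (7.38% of all tested probes were), all higher, and a median of 0.29. The 2 genes with the smallest p there were Abcc3, which exports conjugates, at 1.18, 1.50 and 1.36 on its probes as log2 differences, and the glucuronosyltransferase Ugt1a6, with 0.65, 0.31 and 0.26 (limma, Benjamini-Hochberg adjusted p between 0.527 and 0.741).

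Technical features of the arrays were similar: each had 62.4% to 64.5% of its probes well above background, with a 75th percentile of processed signal between 464 and 558. All NTA arrays were on the same slide and no vehicle array was on it, so that slide and treatment cannot be told apart. Vehicle replicate 3 had a slide and a scan day to itself, and had a median local background of 40 against 54 to 61 elsewhere. Without it the log2 differences of the 8 were between −1.28 and 3.40, and the largest move from the value with all arrays was 0.09, for A_44_P123818.

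The tissue label was checked on 7 hepatocyte genes, all tested, whose probes had medians of 9.46 to 9.64 on NTA arrays and 9.73 to 9.83 on vehicle arrays. Of their 11 probes 0 were higher with NTA, and the median log2 difference was −0.16. The groups did not overlap in 4 of them (13.4% over all tested probes), and 0 had an unadjusted limma p under 0.05. The median over marker probes was higher on every NTA array than on every vehicle array for 5 lists. These ranged from 0.45 to 0.75 with NTA and −0.07 to 0.27 with vehicle for sinusoidal endothelium (4 of 6 genes tested), and from 3.33 to 4.11 with NTA and 2.88 to 3.16 with vehicle for erythroid cells (5 of 6). They ranged from −2.14 to −1.32 with NTA and −2.70 to −2.34 with vehicle for B and plasma cells (3 of 6), and from −0.44 to −0.15 with NTA and −1.50 to −0.47 with vehicle for neutrophils (3 of 5). The endothelial and erythroid lists rested on 7 probes each, all higher with NTA. The groups did not overlap in 5 of the endothelial and 6 of the erythroid probes. The B and plasma cell list and the neutrophil list rested on 4 probes each. The groups did not overlap in 3 of the B and plasma cell probes and in 1 of the neutrophil probes. Among the former, probes of Pou2af1 went opposite ways, with log2 differences of 0.75 and −0.29. For adipocytes (2 of 5) the list medians ranged from 0.20 to 0.60 with NTA and −0.98 to −0.70 with vehicle, from 1 probe each of Fabp4 and Cidec that went opposite ways: the log2 difference was 2.58 for the fatty acid-binding protein gene Fabp4 and −0.22 for the lipid droplet gene Cidec. The groups overlapped for bile duct, macrophages, stellate cells, T and NK cells and smooth muscle, and limma called 0 of the 71 probes in the 11 cell type lists, with 20 higher and 0 lower at an unadjusted p under 0.05, against 7.38% of all tested probes in either direction. The part of these cells in the differences of the 8 probes was not tested.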

How the data were processed

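Cy3-labelled cRNA from total liver RNA was read on one-colour Agilent arrays of design 035170, scanned and quantified with Agilent Feature Extraction 10.7.1.1 per the file headers (10.7 per the submitters' processing notes), with rn4 named as genome build. The deposited intensity (gProcessedSignal) is on a linear scale and background-subtracted within the array, per the file headers. Spot and local background medians and flags are deposited beside it. The series table deposited by the authors is a linear ratio. In 100.0% of its values it equalled gProcessedSignal divided by the array's 75th percentile within 0.0001 plus 0.2%, so scale and direction are known and it was not centred. Its column medians were 0.096, 0.1 and 0.0969 for NTA replicates 1 to 3, and 0.098, 0.0977 and 0.0987 for vehicle replicates 1 to 3.

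Values here are log2(gProcessedSignal) minus log2 of the array's 75th percentile over 61657 non-control probes, with flagged non-uniform spots left out. Symbols came from unversioned RefSeq accessions in a GRCr8 gene table: 27460 probes had 1 symbol and 34197 none. The 38168 probes well above background on all 3 arrays of a group were fitted with limma 3.58.1 (R 4.3.3; lmFit and eBayes, two-sided, Benjamini-Hochberg adjusted over all 38168, threshold 0.05), after a test on simulated data. Probes of a gene were kept apart, since the 8 described are probes. The normexp alternative used gMedianSignal with an offset of 50, in place of the mean signal that had been planned. The 8 probes, the gene lists and the tests were chosen with earlier results of these data known, so no p-value is given for the 8. Named genes follow a rule: the other probes of a target, the 2 named probes with the closest profile, Gstp1, and in each of 5 pathway lists up to 3 called genes or the 2 with the smallest p. Outside this rule, Fabp4, Cidec, Pou2af1 and a further Dnah1 probe were picked with their values in view. The planned search for probes nearby in the genome had no coordinates to use. Nothing in the labels says whether rats were litter mates or housed together. The p-values set the group difference against the spread within groups, which among the vehicle arrays also holds slide and scan day. Precision is limited by the number of arrays. The other chemicals of the series title were not analysed here.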

Additional observations from a re-analysis of the deposited data

How the results depend on the processing

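The 8 probes and A_44_P265299 kept their direction under every alternative run. These were quantile normalization, the 75th percentile of detected probes, the authors' series table, normexp, the first scan day alone or scan day as a block, the replicate block, and leaving out each array. With normexp the log2 differences were 1.86 for A_44_P347283, 2.41 for A_44_P417083, 1.37 for A_44_P127278, 0.52 for A_44_P123818, 0.73 for A_43_P17329, 0.68 for A_44_P669698 and −1.03 for A_64_P160323, more than 1 SD between replicates away in each. An offset added to every spot lowers differences most at dim spots by construction. All other alternatives moved these 9 values by less than 1 SD. The groups of all 8 probes stayed apart in each alternative in which this was counted. With 1 array left out, A_44_P347283 was between 3.39 and 3.53, A_64_P160323 between −1.37 and −1.16, A_43_P17083 between 1.66 and 2.03, and A_44_P265299 between 0.23 and 0.52. Limma called 13 probes, and between 6 and 11 with 1 array left out, the fewest being 6 without NTA replicate 1 and 7 without NTA replicate 2. Of the probes in the gene lists 6 passed, between 2 and 5 with 1 array left out (2 without NTA replicate 1 and 2 without NTA replicate 2), and 3 with 1 probe per gene, where other probes of Gstp1 and Tubb3 are dropped by construction. The replicate numbers did not pair the rats: same-numbered arrays correlated at 0.16, −0.0039 and −0.09 in their deviations from the group means, and the best partner was the same number only for replicate 1. With the replicate block limma called 0 probes, 0 of them in the lists, with 2826 at an unadjusted p under 0.05 and a smallest Benjamini-Hochberg adjusted p of 0.0786. The signal over background limits the dimmest probes, most of all A_44_P123818.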
